A study of Mus musculus with 6 samples.

Results

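The 39 mouse Hox genes were described in stromal cells of hindlimb muscle and of lymph node, by cluster (Hoxa, Hoxb, Hoxc, Hoxd) and by paralog number from 1 to 13. A member was every table row whose symbol is a Hox cluster letter followed by a paralog number and nothing else, which gave 39 of 52997 gene symbols and left out the antisense transcripts. The libraries came from C57BL/6 mice of 8 weeks, with no treatment named in the labels, and each was made from 1000 sorted cells that the series describes as mesenchymal stromal cells. In the muscle group (3 libraries) the cells came from hindlimb skeletal muscle, and in the lymph node group (3 libraries) from inguinal, axillary, brachial and cervical nodes combined. The lymph node group thus joins nodes from several levels of the body, whereas the muscle group has 1 level, so tissue and body level cannot be told apart. The series text states biological replication within each group. However, 2 of the muscle samples carry the same number in their titles, and whether these came from separate animals is not given, so p-values measure the spread between these libraries. The count columns number the muscle libraries 2, 3 and 4, and these numbers are used here.

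Hox genes encode homeodomain transcription factors that give cells of the embryo their position along the head-to-tail axis and along the limb. Within each cluster the order of the genes on the chromosome follows the order of their expression domains: low paralog numbers act in the hindbrain and neck, middle numbers in the trunk, and high numbers in the lumbar, sacral and tail region and in the outer limb. Adult fibroblasts are known to keep a Hox pattern that reflects the place they came from.

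In GRCm38 (mm10, GENCODE M21 annotation) the Hoxa cluster holds 11 genes at chr6:52155590-52260880, and Hoxb holds 10 at chr11:96194316-96368256. The Hoxc cluster holds 9 genes at chr15:102921103-103036852, and Hoxd holds 9 at chr2:74668310-74765142. The part of a Hox gene that is most alike between members is the homeobox, the 180 coding bases of the DNA-binding homeodomain. Reads here were 25 bases long, so a read inside a shared stretch cannot be given to 1 member. Below are the homeoboxes of 3 genes on which the contrast between the tissues turned, from GENCODE M21 transcripts, 5′ to 3′ on the coding strand. Capitals mark bases covered by a 25-base word that also occurs in another Hox gene.
Hoxa10: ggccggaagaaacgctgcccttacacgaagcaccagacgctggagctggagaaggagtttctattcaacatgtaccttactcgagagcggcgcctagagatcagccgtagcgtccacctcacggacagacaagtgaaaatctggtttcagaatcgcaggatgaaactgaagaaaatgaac
Hoxc10: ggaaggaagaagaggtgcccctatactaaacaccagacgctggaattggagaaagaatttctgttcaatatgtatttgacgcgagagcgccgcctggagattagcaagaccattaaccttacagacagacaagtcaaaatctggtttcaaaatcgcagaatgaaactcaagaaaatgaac
Hoxb7: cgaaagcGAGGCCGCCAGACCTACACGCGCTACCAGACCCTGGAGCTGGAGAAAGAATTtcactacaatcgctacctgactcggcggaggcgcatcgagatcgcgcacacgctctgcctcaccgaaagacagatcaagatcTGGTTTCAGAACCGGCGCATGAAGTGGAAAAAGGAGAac
The Hoxa10 and Hoxc10 homeoboxes match at 145 of 180 aligned bases (80.6%) and have 0 bases in capitals, since their differences are spread along the sequence. The Hoxb7 homeobox has 89 of its 180 bases in capitals. Over the whole transcript such shared words were few: 0% of the 25-base words of Hoxa10, 1.15% of Hoxa7 and 1.84% of Hoxb7 occurred in another member. For Hoxc10 the share was 7.64%, because 8.7% of its exon bases also belong to a Hoxc5 transcript model on the same strand.

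Total counts per library ran from 415460 to 2397134, and the smallest was muscle library 4. Hox genes were a minor part of each library, with 241, 131 and 25 counts in muscle libraries 2, 3 and 4 and with 88, 192 and 175 in lymph node libraries 1, 2 and 3. All 8 stromal markers, among them Pdgfra, Ly6a, Dcn and Col1a1, were present in every library, with summed levels of 24816 CPM (counts per 1000000 of the TMM-scaled library size) in muscle library 4 and of 30764 to 41281 CPM in the other 5. Muscle library 4 stood apart in its blood cell transcripts. Its summed levels were 411 CPM for 8 T cell markers, 1817 CPM for 6 B cell markers, 710 CPM for 8 myeloid markers and 608 CPM for 4 erythroid markers. The highest values among the other 5 libraries were 10.5, 255, 28.7 and 12.3 CPM in the same order. Most of the myeloid sum of muscle library 4, 589 CPM, was Ptprc, which other white blood cells also carry. Lyz2 and Tyrobp were at 83.3 and 26.9 CPM there, whereas Csf1r, Itgam and Cd68 had 0 counts. The 7 endothelial markers summed to 239 CPM in muscle library 4 and to 272 to 383 CPM in the other 5. Of these, Pecam1, Lyve1 and Prox1 were raised in muscle library 4, at 59.1, 24.2 and 29.6 CPM against at most 3.84, 1.14 and 4.61 CPM elsewhere. Tek was lower there, at 121 CPM against 260 to 366 CPM, and Cdh5, Kdr and Emcn had 0, 1 and 1 counts. These genes were named after their values had been seen. The main results are therefore given with and without muscle library 4.

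Of the 39 members, 37 had at least 1 count and 2, Hoxa4 and Hoxd12, had 0 counts in all libraries. In each tissue 30 members were detected: 7 had counts in muscle only and 7 in lymph node only. Muscle library 4, the shallowest, showed the fewest members, with 24, 22 and 9 members in muscle libraries 2, 3 and 4 and with 21, 24 and 24 in the lymph node libraries. Only 5 members had a count in all 6 libraries, 21 had 10 or fewer counts in total, and 6 had over 50. At this depth most single members carried too few counts for a test, so sums by cluster and by paralog number are given as descriptions without a p-value, with exact 95% binomial intervals that cover counting error only. Because these are bulk libraries, fewer cells expressing a gene and less RNA per cell cannot be told apart.

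**Figure D1:**
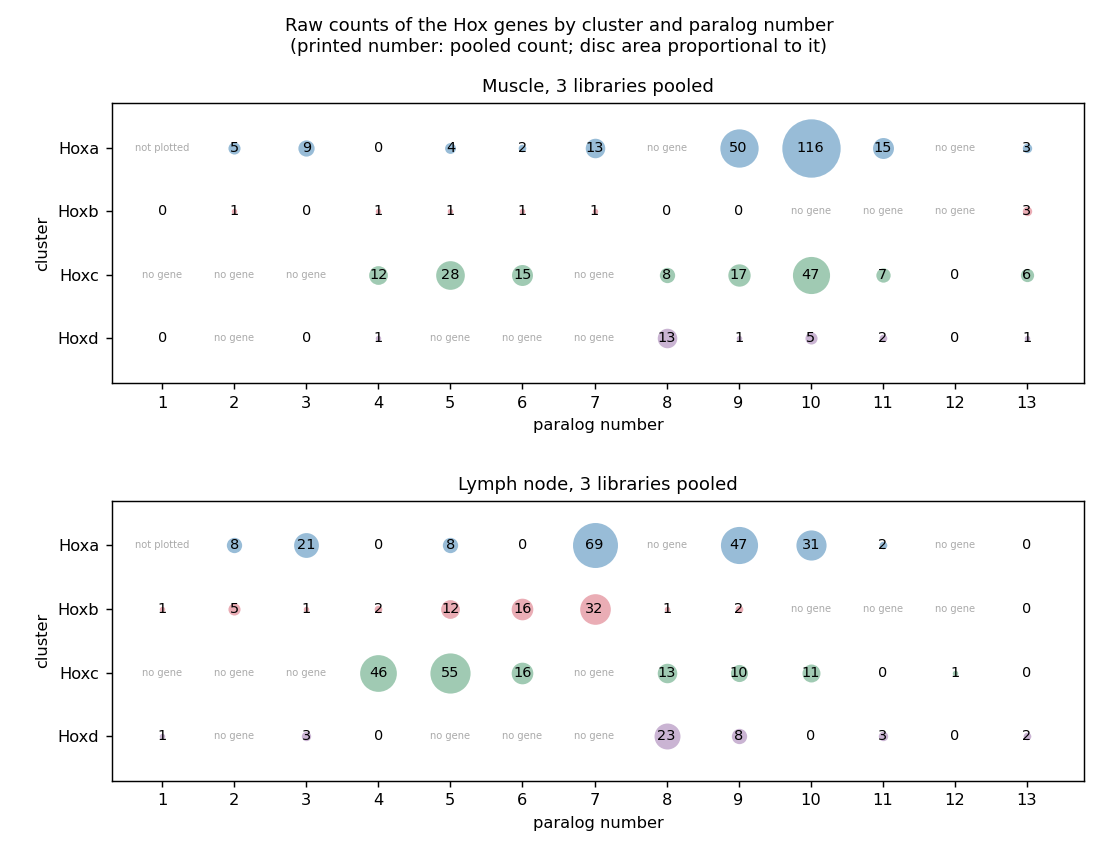
Raw counts of the Hox genes pooled over 3 libraries per tissue (upper panel muscle, lower panel lymph node), by cluster (rows) and paralog number (columns), with disc area proportional to the printed count and 1 member not plotted. Muscle counts lie mostly at numbers 9 and 10 of Hoxa and Hoxc, with 116 for Hoxa10, while lymph node counts lie mostly at numbers 4 to 7, with 69 for Hoxa7, 55 for Hoxc5 and 32 for Hoxb7.

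The posterior genes, paralog numbers 9 to 13, made up most of the Hox counts in muscle and a minority in lymph node. Their share was 70.1%, 64.9% and 76% of the Hox counts in muscle libraries 2, 3 and 4, against 19.3%, 24.5% and 30.3% in lymph node libraries 1, 2 and 3. The groups did not overlap, and the 25 Hox counts of muscle library 4 gave the same picture as the deeper libraries, with an interval of 54.9% to 90.6%. The central genes, numbers 5 to 8, showed the opposite order, at 21.6%, 22.1% and 20% in muscle and at 65.9%, 53.1% and 48.6% in lymph node. The anterior genes, numbers 1 to 4, were 8.3%, 13% and 4% of the muscle counts and 14.8%, 22.4% and 21.1% of the lymph node counts, also without overlap. The 4% of muscle library 4 is 1 count, with an interval of 0.101% to 20.4% that reaches into the lymph node range. Averaged over counts, the paralog number was 8.62, 8.18 and 8.8 in the muscle libraries and 6.69, 6.31 and 6.77 in the lymph node libraries.

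Shares within the Hox counts must sum to 100%, so the same classes were also set against library size. The posterior genes summed to 89.1, 65.3 and 51.1 CPM in muscle and to 9.71, 20.2 and 24.1 CPM in lymph node. Pooled, that is 273 counts against 117, a muscle level 4.1 times that of lymph node (interval 3.29 to 5.14) and 4.26 times without muscle library 4. The difference did not rest on Hoxa10 alone, since the other posterior genes gave 157 counts against 86, or 3.21 times (2.45 to 4.23), and 3.26 times without muscle library 4. The central genes summed to 27.4, 22.3 and 13.4 CPM in muscle and to 33.1, 43.8 and 38.7 CPM in lymph node, a pooled ratio of 0.617 (0.477 to 0.792), or 0.649 without muscle library 4. The anterior genes overlapped by library, at 10.5, 13.1 and 2.69 CPM in muscle and 7.42, 18.5 and 16.8 CPM in lymph node. For them the interval of the pooled ratio included 1 (0.718, 0.479 to 1.06, and 0.781 without muscle library 4). Muscle thus carried more posterior and fewer central Hox transcripts for its library size, with both intervals clear of 1 and no overlap between the libraries of the groups. All Hox genes together were at 127, 101 and 67.2 CPM in muscle and at 50.3, 82.5 and 79.7 CPM in lymph node, a pooled ratio of 1.53 (1.34 to 1.76) with overlapping groups, and 1.6 without muscle library 4.

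**Figure D2:**
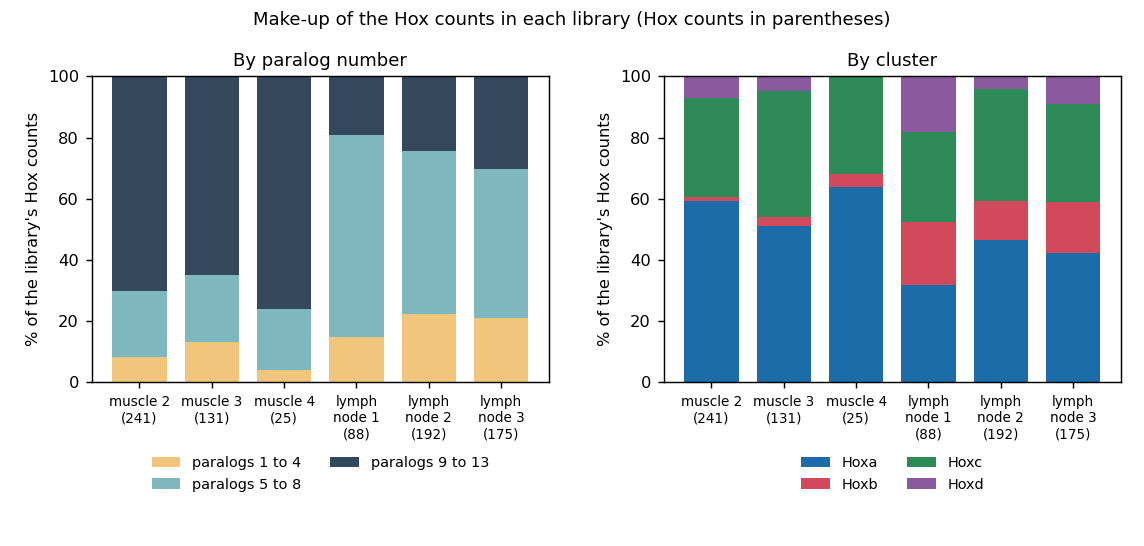
Percentage of each library's Hox counts by paralog number class (left panel) and by cluster (right panel), with the number of Hox counts in parentheses under each library. Numbers 9 to 13 take 64.9% to 76% in muscle and 19.3% to 30.3% in lymph node, and the Hoxb cluster takes 1.24% to 4% in muscle and 13% to 20.5% in lymph node.

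By single paralog number, the intervals of 9, 10, 11 and 13 lay above equal levels and those of 4 and 7 below. Number 4 gave 14 counts in muscle and 48 in lymph node (ratio of muscle to lymph node 0.513, 0.261 to 0.946). Its libraries overlapped, at 4.75, 3.07 and 2.69 CPM in muscle and 3.43, 9.45 and 9.11 CPM in lymph node. Summed over the clusters, number 7 gave 14 counts in muscle and 101 in lymph node, a level 4.1-fold higher in lymph node (2.34 to 7.77). Number 8 was near equal with 21 counts against 37 (ratio of muscle to lymph node 0.998, 0.555 to 1.75). Pooled, number 9 was 1.78 times higher in muscle with 68 counts against 67 (1.25 to 2.54), where the lymph node libraries are together the deeper ones. By library number 9 overlapped as well, at 22.2, 13.1 and 24.2 CPM in muscle and 5.14, 11.6 and 14.1 CPM in lymph node. The ratio of muscle to lymph node was 7.03 for number 10 (168 against 42 counts, 4.99 to 10.1), 8.44 for number 11 (24 against 5, 3.16 to 28.3) and 11.4 for number 13 (13 against 2, 2.59 to 104). Leaving out muscle library 4 gave ratios of 7.62, 8.24 and 10.8 for these, 1.73 for number 9, and a level of number 7 that was 3.68-fold higher in lymph node. The intervals of numbers 10, 11 and 13 overlap, so no order among them can be read. Number 12 had 0 counts against 1.

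**Figure D3:**
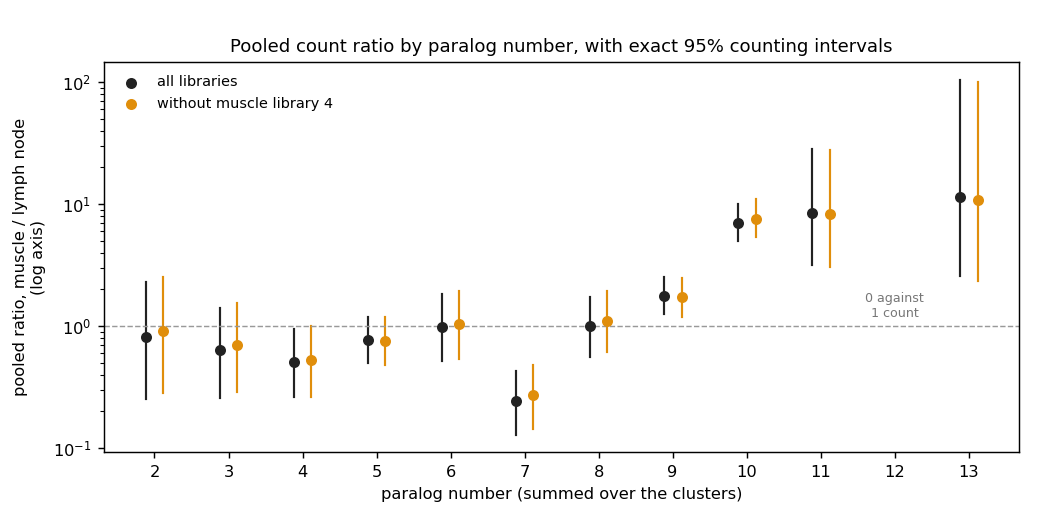
Ratio of pooled levels, muscle over lymph node, for paralog numbers from 2 summed over the clusters (log axis), with exact 95% counting intervals, for all libraries and without muscle library 4. Number 7 lies below 1 and numbers 9, 10, 11 and 13 lie above 1 with both sets of libraries; number 12, with 0 counts against 1, has no point and number 1 is not plotted.

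The clusters differed as well. Hoxb transcripts were few in muscle, with 3, 4 and 1 counts in libraries 2, 3 and 4 against 18, 25 and 29 in the lymph node libraries. As levels these were 1.58, 3.07 and 2.69 CPM against 10.3, 10.7 and 13.2 CPM, which do not overlap, and the pooled level was 5.12-fold higher in lymph node (2.46 to 12.3), or 5.24-fold without muscle library 4. In muscle library 4 the 1 Hoxb count is 4% of its 25 Hox counts, with an interval of 0.101% to 20.4%. That covers the Hoxb shares of lymph node libraries 2 and 3, 13% and 16.6%, so this library alone cannot show Hoxb to be lower. The Hoxa cluster had the highest count of the 4 clusters in each of the 6 libraries, at 31.8% to 64% of the Hox counts. It summed to 75.4, 51.5 and 43 CPM in muscle and to 16, 38.2 and 33.7 CPM in lymph node, a pooled ratio of 2.08 (1.71 to 2.54). The Hoxc cluster summed to 41.1, 41.5 and 21.5 CPM in muscle and to 14.8, 30.1 and 25.5 CPM in lymph node, so that muscle library 4 fell inside the lymph node range, and the pooled ratio was 1.62 (1.28 to 2.05). The Hoxd cluster had 17, 6 and 0 counts in muscle (0 of 25 Hox counts in library 4 allows a share of up to 13.7%, exact interval) and 16, 8 and 16 in lymph node, and its ratio of 1.01 had an interval from 0.578 to 1.73. From the means of the libraries the log2 ratio of Hoxd CPM was -0.55, which became -1.53 without muscle library 2 and 0.03 without muscle library 4. The ratios without muscle library 4 were 2.16 for Hoxa, 1.7 for Hoxc and 1.13 for Hoxd.

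The posterior excess in muscle was seen in Hoxa and Hoxc. Hoxa numbers 9 to 13 gave 184 counts in muscle and 80 in lymph node (ratio 4.04, 3.09 to 5.33), and Hoxc numbers 9 to 13 gave 77 against 22 (ratio 6.15, 3.79 to 10.4). For Hoxd numbers 9 to 13 the 9 and 13 counts gave a ratio of 1.22 with an interval of 0.459 to 3.08, which includes 1 and ends below the ratios of Hoxa and Hoxc. Hoxb numbers 9 to 13 gave 3 counts against 2, a ratio of 2.64 whose interval of 0.302 to 31.6 includes both 1 and the ratios of Hoxa and Hoxc. The central excess in lymph node was seen in Hoxa and Hoxb. Hoxa numbers 5 to 8 gave 19 counts in muscle and 77 in lymph node (2.31-fold higher in lymph node, 1.38 to 4.03). Hoxb numbers 5 to 8 gave 3 against 61 (11.6-fold, 3.78 to 57.6), whereas Hoxc numbers 5 to 8 gave 51 against 84, with a ratio of muscle to lymph node of 1.07 (0.739 to 1.53). With muscle library 4 left out the posterior ratios were 4.12, 6.6 and 1.36 for Hoxa, Hoxc and Hoxd, and the central genes were 2.06-fold and 15.5-fold higher in lymph node for Hoxa and Hoxb.

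Single members were tested with edgeR's quasi-likelihood F test across all genes that passed its filter on low counts, with Benjamini-Hochberg adjustment over all of them. The filter kept 10823 genes, of which 468 (4.32%) passed an adjusted p of 0.05, and 4 of the 39 members: Hoxa7, Hoxa9, Hoxa10 and Hoxc5. Of these, 1 was higher in muscle and 0 were lower, and the other 35 members were too low to be tested. At an unadjusted p under 0.05 the number was 2, Hoxa10 and Hoxa7, where 15.1% of all tested genes were under that value. Hoxa7 passed the filter only through the lymph node libraries, where it is high, so its value is a description. DESeq2 and limma-voom also called 1 member higher and 0 lower, where they called 6.34% and 5.82% of all tested genes. Without muscle library 4, 11246 genes were tested and 1391 (12.4%) passed, with 2 of 6 tested members higher and 0 lower. With no filter, 39490 genes were tested and 945 (2.39%) passed, with 2 of 37 members higher and 0 lower (8 at an unadjusted p under 0.05, as were 8.4% of all genes). In that fit the median log2 fold change was -0.19 over the 37 members and -0.02 over all genes.

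Hoxa10, which patterns the lumbar spine and the thigh in the embryo and is needed in the uterus in the adult, was the member with the most counts and the 1 that passed the test. It had 75, 36 and 5 counts in muscle libraries 2, 3 and 4 and 4, 14 and 13 in lymph node libraries 1, 2 and 3. As levels these were 39.6, 27.7 and 13.4 CPM against 2.28, 6.01 and 5.92 CPM, so that even the lowest muscle library, with 5 counts, lay above the highest lymph node library. The log2 fold change was 2.56 ± 0.49 (SE, n = 3 libraries each, edgeR adjusted p = 0.0185). It was 2.77 ± 0.37 without muscle library 4 (edgeR adjusted p = 0.000127). The call was lost when any other library was left out, with edgeR adjusted p = 0.129 and 0.078 without muscle libraries 2 and 3, and 0.107, 0.114 and 0.11 without lymph node libraries 1, 2 and 3, while the log2 fold change stayed between 2.15 and 2.73. No exon base of Hoxa10 is shared with another annotated gene.

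Hoxc10, its paralog in the Hoxc cluster and also a hindlimb gene, had 24, 23 and 0 counts in muscle and 2, 4 and 5 in lymph node. Muscle libraries 2 and 3 were at 12.7 and 17.7 CPM and the lymph node libraries at 1.14 to 2.28 CPM, while muscle library 4 had 0 counts, which at its depth allows up to 8.06 CPM. The gene did not pass the filter with all libraries; without muscle library 4 the log2 fold change was 3.05 ± 0.51 (edgeR adjusted p = 0.000926). It entered that fit only once the muscle library at 0 counts was left out, so it passed the filter through the libraries where it is high, and this value is a description. With no filter and all libraries it was 2.56 ± 0.79 (edgeR adjusted p = 0.0495). It entered the test when 1 lymph node library was left out, and then did not pass (edgeR adjusted p = 0.384, 0.43 and 0.36). The third gene of this number, Hoxd10, had 5 counts in muscle library 2 and 0 in the other 5 libraries. With the lymph node group set to 3 counts in all, its level was 2.93-fold higher in muscle. The exact interval of its pooled ratio began at 1.61, from the counts of 1 library.

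**Figure D4:**
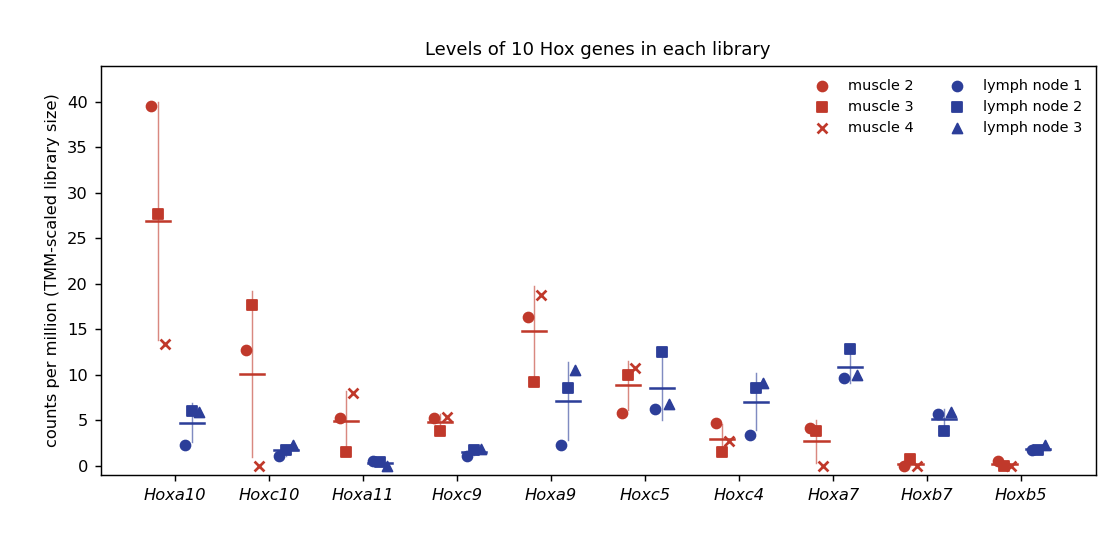
Levels of 10 Hox genes in CPM on TMM-scaled library sizes (vertical axis), each point 1 library (muscle red, lymph node blue), with horizontal bars for the mean and vertical lines for the SD of 3 libraries (cut at 0). Hoxa10 lies at 13.4 to 39.6 CPM in muscle and 2.28 to 6.01 CPM in lymph node, and Hoxb7 at 0 to 0.768 and 3.87 to 5.92 CPM.

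Among the other posterior members, Hoxa9, known for its part in blood progenitors and leukaemia as well as in the trunk, had 31, 12 and 7 counts in muscle and 4, 20 and 23 in lymph node. Its highest level, 18.8 CPM, was in muscle library 4, the library with raised blood cell markers, and their part in this value was not tested. The groups overlapped in Hoxa9, and the log2 fold change of 0.96 ± 0.57 did not pass (edgeR adjusted p = 0.503). The raw counts of Hoxa10 per count of Hoxa9 were 2.42, 3 and 0.714 in muscle libraries 2, 3 and 4 and 1, 0.7 and 0.565 in the lymph node libraries. This ratio is not scaled for length, so it compares the libraries and not the genes, and muscle library 4 lay inside the lymph node range.

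Hoxa11, which patterns the forearm and lower leg and the sacral spine, had 10, 2 and 3 counts in muscle and 1, 1 and 0 in lymph node, a pooled ratio of 13.2 (3.07 to 119), or 11.8 without muscle library 4. Its exons overlap the antisense transcript Hoxa11os over 35% of their bases, and since the strand setting of the counting is not given, the origin of these counts is uncertain. Hoxa11os itself had 9, 5 and 2 counts in muscle and 0 in every lymph node library. With lymph node set to 3 counts it was 9.38-fold higher in muscle, and the exact interval began at 6.78. Hoxc9, a thoracic gene, had 10, 5 and 2 counts in muscle and 2, 4 and 4 in lymph node, a ratio of 2.99 (1.29 to 7.3) without overlap of the levels. Hoxc11, with 5, 2 and 0 counts in muscle, and Hoxc13, a gene of hair and nail with 3, 2 and 1, had 0 in every lymph node library. With lymph node set to 3 counts they were 4.1-fold and 3.52-fold higher in muscle, and their exact intervals began at 2.53 and 2.07. Hoxa13 (2, 0 and 1 counts) and Hoxb13 (2, 1 and 0) were likewise seen in muscle only, with no more than 3 counts each. Hoxd9 pointed the other way, with 1, 0 and 0 counts in muscle and 3, 2 and 3 in lymph node, a ratio of lymph node to muscle of 4.55 whose interval runs from 0.61 to 202. Hoxb9, Hoxc12, Hoxd11 and Hoxd13 had 1 to 5 counts in all.

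Among the central members, the number 7 pair was higher in lymph node by level. Hoxa7 had 8, 5 and 0 counts in muscle and 17, 30 and 22 in lymph node. Its levels of 4.22, 3.84 and 0 CPM against 9.71, 12.9 and 10 CPM did not overlap, but the log2 fold change of -1.64 ± 0.57 did not pass the test (edgeR adjusted p = 0.185, and 0.0628 without muscle library 4). Hoxa7 passed the filter only through the lymph node libraries, where it is high, so these values are a description. The antisense transcript Hoxaas3 overlaps 20.4% of the Hoxa7 exon bases and had 0 to 5 counts per library. Hoxb7, its paralog in the trunk, had 0, 1 and 0 counts in muscle and 10, 9 and 13 in lymph node, a ratio of lymph node to muscle of 18.2 with a counting interval of 3.04 to 741. It did not pass the filter. Its log2 fold change was -3.95 ± 1.31 with no filter (edgeR adjusted p = 0.0874), and in a fit chosen after seeing the data, with no filter and without muscle library 4, it was -3.82 ± 1.09 (edgeR adjusted p = 0.0159), where 3.68% of 38848 genes passed.

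Hoxb5 and Hoxb6 lie beside Hoxb7 and were low in muscle as well. Hoxb5 had 1, 0 and 0 counts against 3, 4 and 5, and Hoxb6 had 0, 0 and 1 against 1, 7 and 8, with ratios of lymph node to muscle of 6.83 (1.01 to 292) and 9.1 (1.41 to 382). The 1 muscle count of Hoxb6 was in muscle library 4, where it equals 2.69 CPM. With that library left out, the Hoxb5 ratio was 6.11 with an interval that includes 1 (0.905 to 261), and Hoxb6 had 0 muscle counts, with an interval from 1.96 upward. The Hoxc genes of the same numbers did not share this pattern. Hoxc5, a gene of the neck and forelimb level, had 11, 13 and 4 counts in muscle and 11, 29 and 15 in lymph node, with a log2 fold change of -0.05 ± 0.50 (edgeR adjusted p = 0.985). Hoxc6 had 10, 5 and 0 counts against 3, 9 and 4, and Hoxc8 had 6, 2 and 0 against 2, 4 and 7, with intervals of the ratio that include 1. Hoxd8 had 10, 3 and 0 counts against 9, 4 and 10 (ratio 0.994, 0.462 to 2.05), and Hoxa5 had 4, 0 and 0 against 1, 6 and 1. Hoxa6, with 2 counts in muscle library 2, and Hoxb8, with 1 in lymph node library 1, were at the edge of detection.

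Of the anterior members, Hoxc4 had the most counts, with 9, 2 and 1 in muscle and 6, 20 and 20 in lymph node. Its levels overlapped, at 1.54 to 4.75 CPM and 3.43 to 9.11 CPM, and the pooled ratio was 0.459 (0.221 to 0.88). Hoxa3, needed for thymus and parathyroid, had 2, 7 and 0 counts against 0, 11 and 10, so that it ranged from 0 to 5.38 CPM in muscle and from 0 to 4.73 CPM in lymph node. Hoxa2, a gene of the pharyngeal arches, had 3, 2 and 0 against 0, 6 and 2. Hoxb1 to Hoxb4, Hoxd1, Hoxd3 and Hoxd4 had 1 to 6 counts each over all 6 libraries. For Hoxd3 and Hoxd4, 62.8% and 52.3% of exon bases lie under other models. For Hoxb3 52.9% do, and the antisense transcript Hoxb3os is the model with the largest overlap.

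Across all members, 4 had a level higher in every muscle library than in any lymph node library (Hoxa10, Hoxa11, Hoxc9 and Hoxc13) and 4 a level lower in every muscle library (Hoxa7, Hoxb5, Hoxb7 and Hoxd9). The 4 lower members had 0 counts in muscle library 4, which at its depth allows up to 8.06 CPM. That is above every lymph node level of Hoxb5, Hoxb7 and Hoxd9, so this library cannot show these genes to be lower. Among the tested genes 9.93% were higher and 13.7% lower by this measure, so the numbers of members, 4 and 4 of 39, are near those shares or under them. Those shares are of genes that passed the filter on low counts, whereas 35 of the 39 members did not. Genes with few counts tie at 0 more easily, so the sets are unlike and neither an excess nor a lack can be read. The 4 higher members have paralog numbers 9, 10, 11 and 13, and the 4 lower have 5, 7, 7 and 9. With muscle library 4 left out, 8 members were higher and 5 lower, where 19.2% of the tested genes were higher and 20.1% lower. These numbers too are near those shares or under them, with the same limit.

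Levels of different genes can be compared only per length, here as CPM per kilobase of exon. In muscle, pooled over its libraries, Hoxa10 was highest at 9.94 (8.21 to 11.9, exact Poisson interval), followed by Hoxc10 at 6.9 (5.07 to 9.17), and these neighbours overlap in their intervals. Next came Hoxc5 at 2.54 (1.69 to 3.67) and Hoxa9 at 2.51 (1.86 to 3.31), both below Hoxc10 beyond counting error and not apart from each other. In lymph node the order began with Hoxa7 at 3.82 (2.97 to 4.84), Hoxb7 at 3.3 (2.26 to 4.66), Hoxc4 at 2.85 (2.09 to 3.81) and Hoxc5 at 2.84 (2.14 to 3.69), which all overlap. Hoxa10 came next at 1.51 (1.03 to 2.14), with an upper end equal, as rounded, to the lower end for Hoxc5, and its interval overlaps that of Hoxa9 at 1.34 (0.986 to 1.78).

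Genes that work with or above the Hox clusters are read against the 4.32% of all tested genes that passed with all libraries and the 12.4% that passed without muscle library 4. TALE homeodomain proteins (the Pbx, Meis, Pknox and Tgif families) bind DNA together with Hox proteins or compete for their sites. Of 11 such genes 7 were tested and 0 passed in either direction by edgeR, DESeq2 or limma-voom, with 2 at an unadjusted edgeR p under 0.05. Without muscle library 4, 2 of 8 were lower in muscle, among them Meis1 (log2 fold change -0.72, edgeR adjusted p = 0.0383). Polycomb proteins keep Hox genes silent and Trithorax proteins keep them active. Of 29 such genes 23 were tested, 0 were higher and 1, Kdm6b, a demethylase that removes the Polycomb mark, was lower in muscle. Kdm6b had 69, 44 and 14 counts in muscle and 273, 226 and 219 in lymph node (log2 fold change -1.71 ± 0.26, edgeR adjusted p = 0.00589), and it passed also when any 1 library was left out. The median log2 fold change of the tested Polycomb and Trithorax genes was 0.15, against 0.02 for all tested genes. Of 11 genes that act upstream of Hox expression in the axis, such as Cdx and retinoic acid receptor genes, 6 were tested and 0 passed by edgeR, DESeq2 or limma-voom, with 1 at an unadjusted edgeR p under 0.05. Of 6 ParaHox and neighbouring genes and 17 noncoding transcripts of the clusters none had enough counts for the test. Hotair, a noncoding RNA between Hoxc11 and Hoxc12, had 7, 1 and 1 counts in muscle and 1, 0 and 0 in lymph node (ratio 15.8, 2.19 to 694).

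The list of limb genes held hindlimb genes (Pitx1, Tbx4, Isl1), the forelimb gene Tbx5 and genes of both limbs (Shox2, Prrx1, Tbx15, Gli3, Alx4, Hand2). Of these 10 genes 7 were tested, 1 was higher and 1 lower in muscle. Tbx4, the T-box gene of the hindlimb, had 18, 13 and 12 counts in muscle and 0, 2 and 1 in lymph node (log2 fold change 4.76 ± 0.86, edgeR adjusted p = 0.0133). It passed the filter only through the muscle libraries, where it is high, so this value is a description. Shox2, which patterns the limb segment nearest the body, had 70, 46 and 6 counts against 150, 207 and 192 (-1.45 ± 0.26, edgeR adjusted p = 0.0144). Leaving out a library other than muscle library 4 ended the Shox2 call in each case (edgeR adjusted p = 0.0505 to 0.111), and leaving out a lymph node library ended that of Tbx4 (0.0795 to 0.11). Tbx5, the forelimb counterpart of Tbx4, had 7, 18 and 0 counts in muscle and 28, 60 and 30 in lymph node and did not pass (-1.41 ± 0.66, edgeR adjusted p = 0.361). Without muscle library 4, 3 of 8 tested genes were higher (Tbx4, Isl1 and Tbx15) and 2 lower (Shox2 and Prrx1). Isl1, which acts before Tbx4 in the hindlimb field, had 17, 14 and 0 counts in muscle and 0, 3 and 1 in lymph node. It did not pass the filter with all libraries and entered that fit through the 2 muscle libraries where it is high, so its call is a description. Meis1, Tbx5, Isl1, Tbx15, Prrx1, Hoxa11os and Hotair were named after their values had been seen.

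The 6 muscle fibre markers summed to 61.7, 69.9 and 13.4 CPM in muscle and to 10.3 to 11.4 CPM in lymph node, and the 4 mural cell markers summed to 82.8, 89.1 and 96.8 CPM in muscle and to 16.8 to 20 CPM in lymph node. The mural sum was carried by Cspg4, which encodes the NG2 proteoglycan of pericytes and other cells, at 73.3, 81.5 and 69.9 CPM in muscle and 6.85, 9.45 and 11.4 CPM in lymph node (log2 fold change 3.01 ± 0.27, edgeR adjusted p = 0.000491). The other mural markers were low: Rgs5, Acta2 and Myh11 had 0 to 10 counts per muscle library and 2 to 9 per lymph node library. The fibre sum was carried by Acta1, at 35.3, 32.3 and 0 CPM against 0 to 0.43 CPM, and Tnnt3, at 16.4, 23.8 and 0 CPM against 2.86 to 7.28 CPM, whereas Myh4 and Myh1 had 0 to 4 counts per muscle library and 1 to 8 per lymph node library. The 5 satellite cell markers summed to 91.8, 88.4 and 102 CPM in muscle and to 198, 210 and 155 CPM in lymph node. Vcam1, an adhesion molecule that stromal cells also carry, gave most of the lymph node sum (log2 fold change -1.68 ± 0.28, edgeR adjusted p = 0.01). In muscle libraries 2 and 3, Des, which mural cells and fibres also express, gave a like share at 44.3 and 46.1 CPM beside Vcam1 at 47.5 and 40 CPM. The defining satellite cell genes Pax7, Myf5 and Myod1 had 0 to 3 counts per library, with Myf5 at 0 in all. The B cell markers summed to 255 CPM in lymph node library 3 and to 15.4 and 33.5 CPM in lymph node libraries 1 and 2. The part of these cells in the Hox difference was not tested. Cspg4, Acta1, Tnnt3, Vcam1 and Des were named after their values had been seen.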

How the data were processed

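Polyadenylated RNA of 6 libraries (3 per tissue, 2 x 25-base reads) was measured. Values are raw counts per gene symbol in the table the authors deposited. The submitters' processing notes name STAR 2.5.4, featureCounts and mm10. The sources used here give neither the annotation nor the strand setting nor the handling of shared reads.

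Genes were tested with edgeR 4.0.16 in R 4.3.3 (filterByExpr, TMM, quasi-likelihood F test, tissue as the only term, two-sided, Benjamini-Hochberg, threshold 0.05). The SE is the log2 fold change divided by the root of F. Alternatives were DESeq2 1.42.0, limma-voom (limma 3.58.1), other scalings and filters and each library left out. Sums and shares have exact 95% binomial intervals, computed with scipy 1.17.1, which cover counting error only and leave out the spread between libraries. PCR copies were not marked, so the intervals may be too narrow even for counting error. A fold against 0 counts used a floor of 3 counts over the group and took the other group's count as it was, so it is not a lower bound. Per-length levels used merged exons of GENCODE M21, in which 49365 of 52997 symbols and all 39 members were found. Scripts were tested on simulated data, where 85% of 100 planted 4-fold changes and 15% of 100 planted 2-fold changes were recovered. These were planted in genes with mean levels above that of every Hox member, so a member that did not pass may still differ. Members and gene lists were chosen with earlier results of these data known. 1 member, 1 listed gene and 1 sequence are not reported here. Named genes are the members, with full statistics for members that passed and the next tested ones by p, and up to 4 passing genes per other list.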

Additional observations from a re-analysis of the deposited data

How the results depend on the processing

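The number of Hox genes higher in muscle was 1 with all libraries and also with DESeq2, limma-voom and the other scalings. The stricter filter gave 1 as well, but there Hoxa10 was the only member tested. It passed that filter only through the muscle libraries, where it is high, so that call is a description. The number higher was 2 with no filter, 0 to 2 when each library was left out in turn, and 2 with no filter and without muscle library 4, a fit chosen after seeing the data. The number lower was 0 in all of these except the last, where it was 1 (Hoxb7). Over all genes the number called was 945 with no filter, 142 to 1391 with 1 library left out (the highest without muscle library 4), and 1430 with no filter and without muscle library 4. The log2 ratio of group mean CPM was 0.95 for Hoxa, -2.22 for Hoxb, 0.56 for Hoxc and 1.93 for numbers 9 to 13. Under the alternatives that were run it ranged from 0.64 to 1.17, from -2.44 to -2.01, from 0.30 to 0.81 and from 1.61 to 2.17 in the same order. For Hoxd it was -0.55 with all libraries and ran from -1.53 (without muscle library 2) to 0.03 (without muscle library 4). No paired analysis was possible because the numbers of the muscle count columns (2, 3 and 4) cannot be matched to those of the sample titles, and nothing ties them to the numbers of the lymph node libraries. With 25 Hox counts, muscle library 4 limits what can be said of single genes there, and 35 of 39 members were too low for the test.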
